A study of Mus musculus with 4 samples.

Results

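The genes described here are the nuclear-encoded genes of the mitochondrial respiratory chain, chosen by symbol. They are all genes whose symbol starts with Nduf, Uqcr, Atp5, Cox4, Cox5, Cox6, Cox7 or Cox8, without pseudogenes and without antisense transcripts. The rule took 88 of the 27933 gene symbols in the Illumina matrix, and 84 of the 88 also had counts in the Nanopore matrices. Here and below they were assigned to complexes by symbol alone. This gave 38 genes of complex I, 7 complex I assembly factors (Ndufaf genes), 8 genes of complex III, 18 of complex IV and 17 of complex V.

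The data are single-cell RNA counts from the brain of a C57BL/6 mouse at stage E18, with cells from cortex, hippocampus and sub ventricular zone. Droplets of 1 suspension were divided before reverse transcription into 2 aliquots, named 190 and 951 after their numbers of cells, and the cDNA of both was read on an Illumina and on a Nanopore instrument. The mouse carried no mutation or treatment that the labels name. The aliquots are technical replicates, so that every test measures the spread between them and not between animals. A UMI, the random tag added to each captured molecule, is the unit of all counts. Cells with at least 1400 Illumina genes were kept, which left 186 and 935 cells.

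The respiratory chain sits in the inner mitochondrial membrane. Complex I (NADH dehydrogenase), complex III (cytochrome bc1) and complex IV (cytochrome c oxidase) pass electrons to oxygen and pump protons, and complex V (ATP synthase) uses the proton gradient to make ATP. A few core subunits are encoded in mitochondrial DNA, while the subunits described here are made from nuclear genes and imported. Several of them exist as paralogs or splice forms that differ between tissues.

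Counts, CPM and shares given as a pair are those of aliquot 190 and aliquot 951, in that order. Depth was 1809081 and 8295650 UMIs on Illumina, and 993220 and 4889148 on Nanopore. Cells were clustered with the 88 genes removed, and clusters were named from marker genes as radial glia-like, cycling radial glia-like, intermediate progenitor-like, and as immature or mature, glutamatergic-like or GABAergic-like neurons. These 7 classes held from 13 to 43 cells in the smaller aliquot and from 56 to 236 in the larger one. Their median depth ran from 4858 to 13128 Illumina UMIs per cell over classes and aliquots. A cluster of 86 cells had no marker of its best class among its 10 leading genes and stayed unnamed, by a threshold set after the clusters were seen, and 3 and 13 Cajal-Retzius-like cells were too few to be tested. Markers of microglia, endothelium and pericytes summed to at most 33.5 CPM per list and aliquot (CPM is a gene's UMI count scaled to the same total in every library), while 4 haemoglobin genes and Alas2, marks of red blood cells, summed to 675 and 591 CPM. The haemoglobin gene Hbb-bs was counted in 934 of the 1121 kept cells, and Alas2 in 9, so haemoglobin UMIs were spread over most cells. The part of microglia, endothelium, pericytes and red blood cells in the results was not tested. Of the cell barcodes, 13 occurred in both aliquots. Reads shared with pseudogenes or other near-identical copies were not examined, and single levels are uncertain to that extent.

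Splice forms differed between cell classes in a few of these genes. Atp5c1 (ENSMUSG00000025781, chr2:10056016-10080510, minus strand, GRCm38), which encodes the gamma subunit that forms the rotating shaft of ATP synthase, was counted with and without exon 9, an exon of 37 bases at chr2:10056770-10056806. Skipping of this exon is known from heart and skeletal muscle. The exon carries the last coding bases and the stop codon, so the reading frame ends differently in both forms. The ends of both reading frames are shown because the isoforms part here, with capitals for the bases that follow exon 8 up to the stop codon.
Atp5c1 exon 9 included: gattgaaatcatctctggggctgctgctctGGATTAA
Atp5c1 exon 9 skipped: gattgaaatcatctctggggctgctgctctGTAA
The reading frame had 298 codons with the exon and 297 without it, a difference of 1 codon at the end of the protein. Over all cells, 85 of 3872 Nanopore UMIs of Atp5c1 lacked exon 9, or 2.20% (95% Clopper-Pearson interval 1.76 to 2.71%). This and all other intervals and limits cover counting error only. A limit given for a count of 0 is 3 UMIs as a share of the gene's UMIs. It lies below the upper end of the Clopper-Pearson interval, which is 10.3% for 0 of 34.

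In radial glia-like cells, 6 of 57 Atp5c1 UMIs lacked the exon in aliquot 190 (10.5%, interval 3.96 to 21.5%) and 55 of 344 in aliquot 951 (16.0%, interval 12.3 to 20.3%). In mature glutamatergic-like neurons it was 0 of 179 and 0 of 1017, which allows shares of up to 1.68 and 0.295%. In mature GABAergic-like neurons it was 0 of 34 and 0 of 290, which allows up to 8.82 and 1.03%. Skipping was thus counted in both aliquots of radial glia-like cells and in no UMI of either mature class. Cycling radial glia-like cells had 2 of 95 and 7 of 384 (2.11 and 1.82%) and intermediate progenitor-like cells 3 of 35 and 9 of 249 (8.57 and 3.61%). Immature glutamatergic-like neurons had 0 of 44 and 0 of 346, which allows up to 6.82 and 0.867%, and immature GABAergic-like neurons 2 of 73 and 0 of 391, which allows up to 0.767% in the latter. Both radial glia-like values were above those of every other class.

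The skipped form was spread over many radial glia-like cells. In aliquot 190, 4 of 9 radial glia-like cells with any Atp5c1 UMI had at least 1 without the exon. In aliquot 951 it was 29 of 52, and the highest number in a cell was 9. Radial glia-like cells without a UMI of any of 16 pericyte, endothelial or microglial markers had 3 of 36 and 31 of 215 skipped UMIs (8.33 and 14.4%). These were 9 of 13 and 41 of 56 radial glia-like cells. The whole class held 61 skipped UMIs of 401 over both aliquots (15.2%), and the rest of the 61 came from cells with at least 1 UMI of these markers. In both aliquots the share in cells without these markers was below that of the whole class given above. In the cells without these markers, the share in aliquot 190 was below the 8.57% of intermediate progenitor-like cells in the same aliquot.

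Isoform usage was tested with edgeR in 663 genes that kept more than 1 isoform after filtering, 16 of them respiratory chain genes. Atp5c1 usage differed from radial glia-like cells in mature glutamatergic-like (adjusted p = 1.8e-09), mature GABAergic-like (adjusted p = 7.27e-06) and cycling radial glia-like cells (adjusted p = 0.00199). The call against mature glutamatergic-like neurons held whichever aliquot of a class was left out. The call against mature GABAergic-like neurons was lost without their aliquot 951 (adjusted p = 0.127), and the call for cycling cells without aliquot 951 of cycling (0.279) or of resting radial glia-like cells (0.694). Of the 16 genes, 3 were called between mature glutamatergic-like neurons and radial glia-like cells, where 15.8% of all tested genes were called, 1 between mature GABAergic-like neurons and radial glia-like cells (13.0% of all) and 1 between cycling and resting radial glia-like cells (3.92% of all). None was called between mature and immature glutamatergic-like neurons (1.66% of all), between mature and immature GABAergic-like neurons (0.905% of all) or between both mature classes (1.51% of all), with 0, 0 and 1 of the 16 at an unadjusted edgeR p under 0.05, against 10.6, 7.54 and 9.65% of all genes.

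Ndufv3 (ENSMUSG00000024038, chr17:31520115-31531331, plus strand) encodes a small accessory subunit of the NADH-oxidising part of complex I. It had a short form of 104 codons and a long form of 468 codons that contains a further exon of 1092 bases, all of them coding, at chr17:31527310-31528401. The junctions are shown because they tell the forms apart, with capitals for the 60 first and the 60 last bases of the long exon and lower case for the neighbouring exons.
Ndufv3 long form, entry into the long exon: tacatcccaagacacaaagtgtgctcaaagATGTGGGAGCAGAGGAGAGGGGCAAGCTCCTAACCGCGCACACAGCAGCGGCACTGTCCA
Ndufv3 long form, exit from the long exon: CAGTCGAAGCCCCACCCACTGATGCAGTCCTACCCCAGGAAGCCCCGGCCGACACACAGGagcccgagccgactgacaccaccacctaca
Ndufv3 short form: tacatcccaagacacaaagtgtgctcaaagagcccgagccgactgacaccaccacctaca
The long form took 110 of the gene's UMIs, or 5.63%. In radial glia-like cells it was 5 of 25 and 20 of 170 UMIs (20% with interval 6.83 to 40.7%, and 11.8% with interval 7.34 to 17.6%), and in mature glutamatergic-like neurons 5 of 102 and 26 of 601 (4.90 and 4.33%). Both radial glia-like values lay above both mature glutamatergic-like values, and usage differed by the edgeR test (adjusted p = 0.0134). The call was lost when either radial glia-like aliquot was left out (adjusted p = 0.0893 and 0.188), without aliquot 951 of mature glutamatergic-like neurons (0.259), and without the filter on low counts (0.178).

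Atp5j, a subunit of the peripheral stalk of ATP synthase, was the remaining gene called between mature glutamatergic-like neurons and radial glia-like cells (adjusted p = 0.0262). Its second isoform, Atp5j-203, was found in radial glia-like cells in 6 of 100 and 37 of 612 UMIs (6.00 and 6.05%) and in mature glutamatergic-like neurons in 35 of 289 and 197 of 1569 (12.1 and 12.6%). Both aliquots of the neurons lay above both of the radial glia-like cells. The main isoform and Atp5j-203 both have 108 codons. This call was lost without either mature glutamatergic-like aliquot (adjusted p = 0.203 and 0.236), without aliquot 951 of radial glia-like cells (0.427) and without the filter (0.687).

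**Figure D1:**
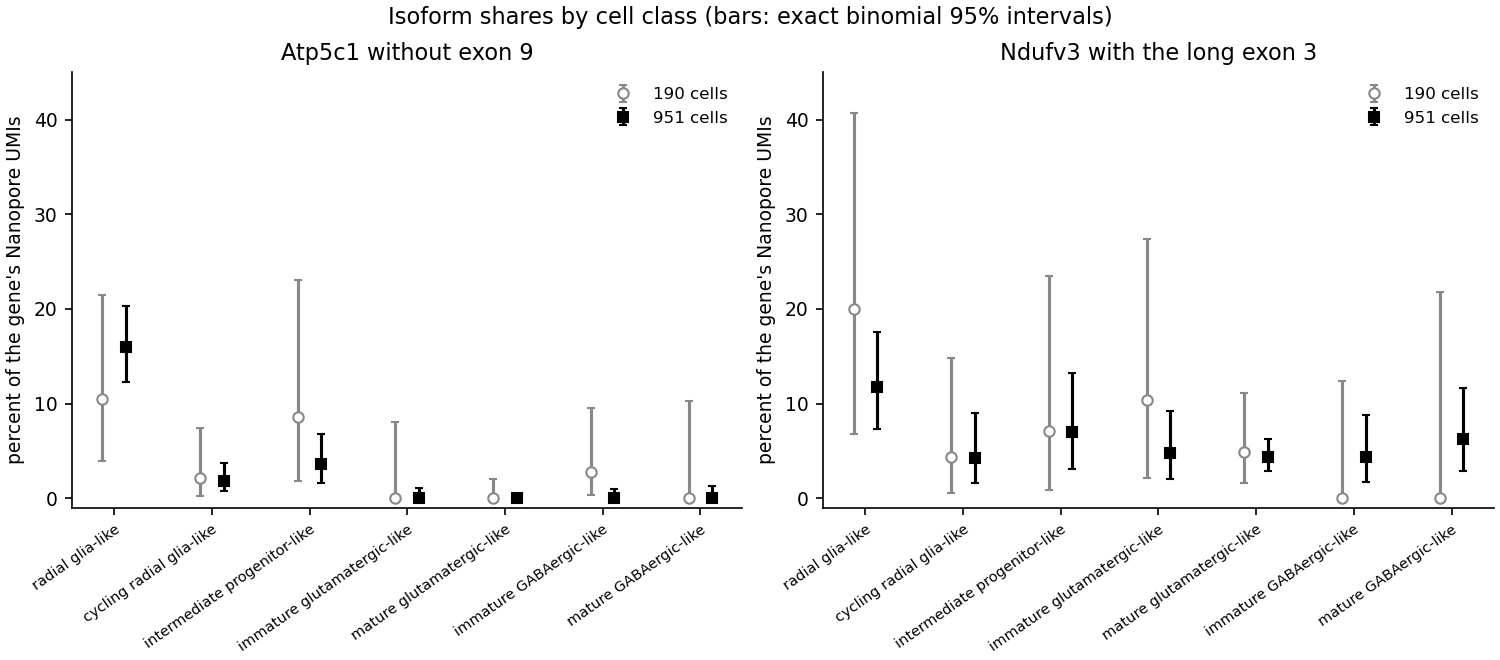
Percent of a gene's Nanopore UMIs (y axis) without exon 9 in Atp5c1 (left) and with the long exon in Ndufv3 (right) for 7 cell classes (x axis), with open circles for aliquot 190, filled squares for aliquot 951 and bars for the 95% Clopper-Pearson interval. In both genes the radial glia-like values are the highest, at 10.5 and 16.0% for Atp5c1 and 20 and 11.8% for Ndufv3.

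In most of these genes 1 isoform held nearly all UMIs. Only 16 of the 84 genes with any isoform were read as a single isoform. Among 69 genes with at least 300 Nanopore UMIs the main isoform held a median of 98.9% of the UMIs, and in 54 of them it held over 95%. It held 80% or less in 5 genes. These were Atp5g1 (58.2%), Atp5h (70.2%), Atp5g3 (71.9%), Atp5g2 (76.5%) and Cox6c (79.1%). Atp5g1, Atp5g2 and Atp5g3 are the 3 genes for subunit c, the membrane ring of ATP synthase, and their proteins are the same after the import sequence is removed. In each of the 5 genes the main and the second isoform had the same number of codons (136, 161, 141, 146 and 76, in the order given). The share of the main isoform was 74.9 and 69.2% for Atp5h and 76.8 and 70.9% for Atp5g3.

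Summed up, the 88 genes made up 3.13 and 3.38% of Illumina UMIs and 3.80 and 3.97% of Nanopore UMIs. On Illumina the class means ran from 2.93% in immature glutamatergic-like neurons to 3.56% in radial glia-like cells, a ratio of 1.21, and on Nanopore from 3.57 to 4.11% in the same classes. Both aliquots of a class differed by 0.125 to 0.406 percentage points on Illumina, so that neighbouring classes in this order do not stand apart. Mitochondrially encoded genes were ordered differently, from 1.85% of Illumina UMIs in cycling radial glia-like cells to 2.55% in mature glutamatergic-like neurons, a ratio of 1.37.

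**Figure D2:**
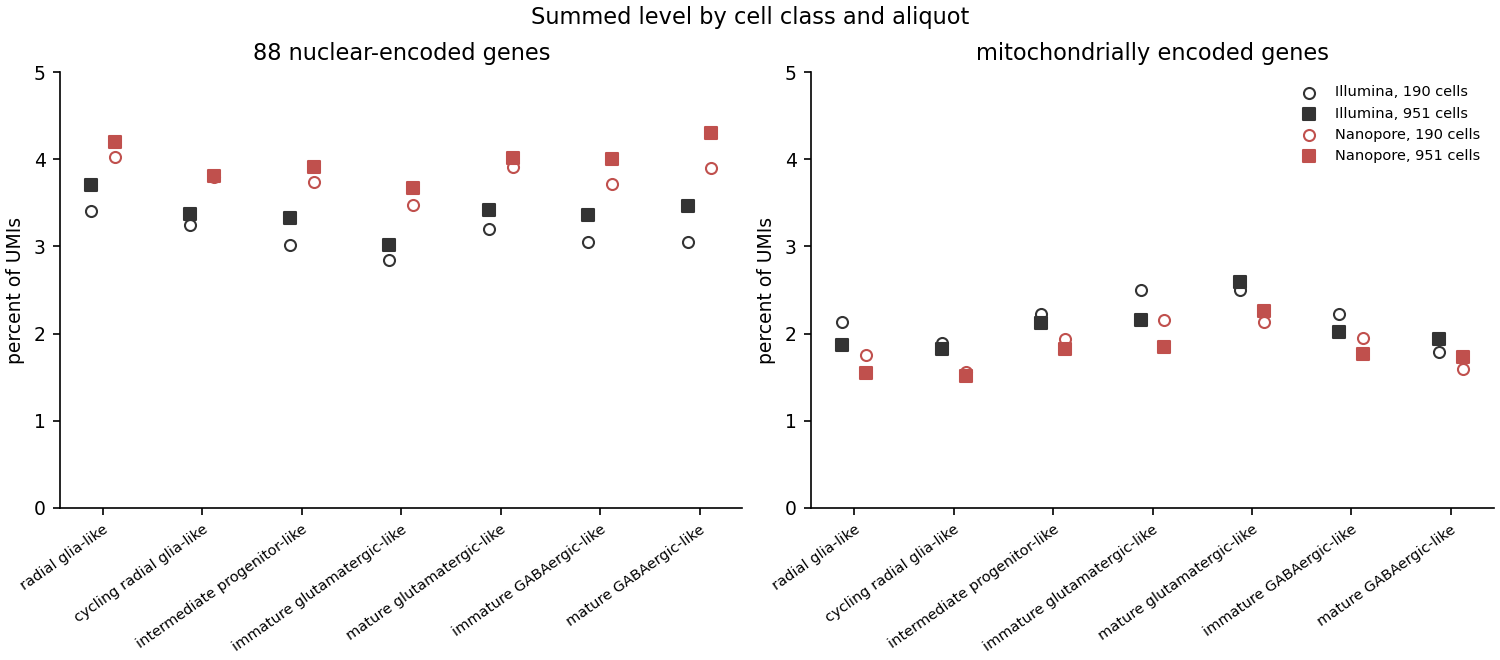
Summed level of the respiratory chain genes and of the mitochondrially encoded genes, in percent of all UMIs (y axis), for 7 cell classes (x axis) in each aliquot and on each platform. The nuclear genes have their highest Illumina mean in radial glia-like cells (3.56%), and the mitochondrially encoded genes in mature glutamatergic-like neurons (2.55%).

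For each gene the highest class mean was divided by the lowest. Over the 3004 genes that reached 50 CPM on average across classes the median of this ratio was 2.03, and over the 73 respiratory chain genes among them it was 1.41. The ratio was under 2 in 70 of the 73 (95.9%), against 48.5% of all 3004 genes. The 3004 genes were not matched to the 73 by level. They also include genes that define the classes, since only the respiratory chain genes were left out of clustering. The exceptions were Cox5a, Atp5g2 and Ndufs8, with ratios of 2.40, 2.15 and 3.17. The ratio of Ndufs8 rests on few counts in its lowest class, mature GABAergic-like neurons. These had 1 UMI in aliquot 190 (10.4 CPM) and 48 in aliquot 951 (76.1 CPM), against 128 and 146 CPM in radial glia-like cells. At the even end was Cox6b1, a subunit of cytochrome c oxidase that faces the intermembrane space, with a ratio of 1.12. The highest class was radial glia-like in 30 of the 73 genes, and the lowest immature glutamatergic-like in 23. These counts were not made over the 3004 genes, so neither is read as particular to the 73. The genes with the most UMIs belonged to complexes IV and V. Their Illumina levels were 1207 and 1306 CPM for Cox7c, 1162 and 1214 for Cox4i1, 982 and 1105 for Cox6c, 838 and 932 for Atp5l, 865 and 873 for Atp5b (the catalytic beta subunit), 777 and 886 for Atp5e, 797 and 877 for Cox7a2 and 750 and 857 for Cox6b1. Each UMI marks the 3' end of 1 molecule, so these levels were compared without scaling by length.

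Between neurons and radial glia-like cells, Cox5a and Atp5g2 moved in opposite directions. Cox5a (chr9:57521274-57532426, plus strand) encodes a subunit of cytochrome c oxidase on the matrix side. Its Illumina level was 527 and 561 CPM in radial glia-like cells, 815 and 820 in mature glutamatergic-like and 1348 and 1257 in mature GABAergic-like neurons. Nanopore gave 780 and 853, 1291 and 1256, and 2167 and 1993 CPM. The 3 classes did not overlap on either platform. Cox5a rose in mature glutamatergic-like neurons by a log2 fold change of 0.61 (standard error 0.17, adjusted p = 0.00438) and in mature GABAergic-like neurons by 1.11 (standard error 0.18, adjusted p = 1.84e-06). Cox5b, another subunit of the complex that was picked after its values were seen, had 549 and 577 CPM in radial glia-like cells, 476 and 634 in mature glutamatergic-like and 477 and 669 in mature GABAergic-like neurons, so that the classes overlapped.

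Atp5g2 (chr15:102662864-102672352, minus strand) had 743 and 805 CPM in radial glia-like cells, 371 and 383 in mature glutamatergic-like and 415 and 445 in mature GABAergic-like neurons. It fell in both, with log2 fold changes of -1.01 (standard error 0.18, adjusted p = 1.28e-05) and -0.97 (standard error 0.19, adjusted p = 6.67e-05). Cycling radial glia-like cells were at 837 and 786 CPM, overlapping resting ones, and intermediate progenitor-like cells at 579 and 683, below them. The other subunit c genes passed the test in neither comparison. Atp5g1 had 499 and 487 CPM in radial glia-like cells, 575 and 630 in mature glutamatergic-like and 394 and 466 in mature GABAergic-like neurons, and Atp5g3 had 288 and 263, 249 and 256, and 238 and 257. Against radial glia-like cells the log2 fold changes in mature glutamatergic-like and mature GABAergic-like neurons were 0.32 and -0.30 for Atp5g1 and -0.09 and -0.25 for Atp5g3.

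Ndufc2 (chr7:97400003-97407802, plus strand), a membrane subunit of complex I, had 621 and 763 CPM in radial glia-like cells, 400 and 422 in mature glutamatergic-like and 311 and 449 in mature GABAergic-like neurons. It fell by 0.73 on the log2 scale in the former (standard error 0.19, adjusted p = 0.00225) and by 0.94 in the latter (standard error 0.20, adjusted p = 0.000236). Cox5a and Atp5g2 kept both calls under all 16 other settings of the analysis, and Ndufc2 under 14 and 16 of them. Ndufc2 lost its call in mature glutamatergic-like neurons without their aliquot 190 (adjusted p = 0.111) or aliquot 951 of radial glia-like cells (0.165).

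**Figure D3:**
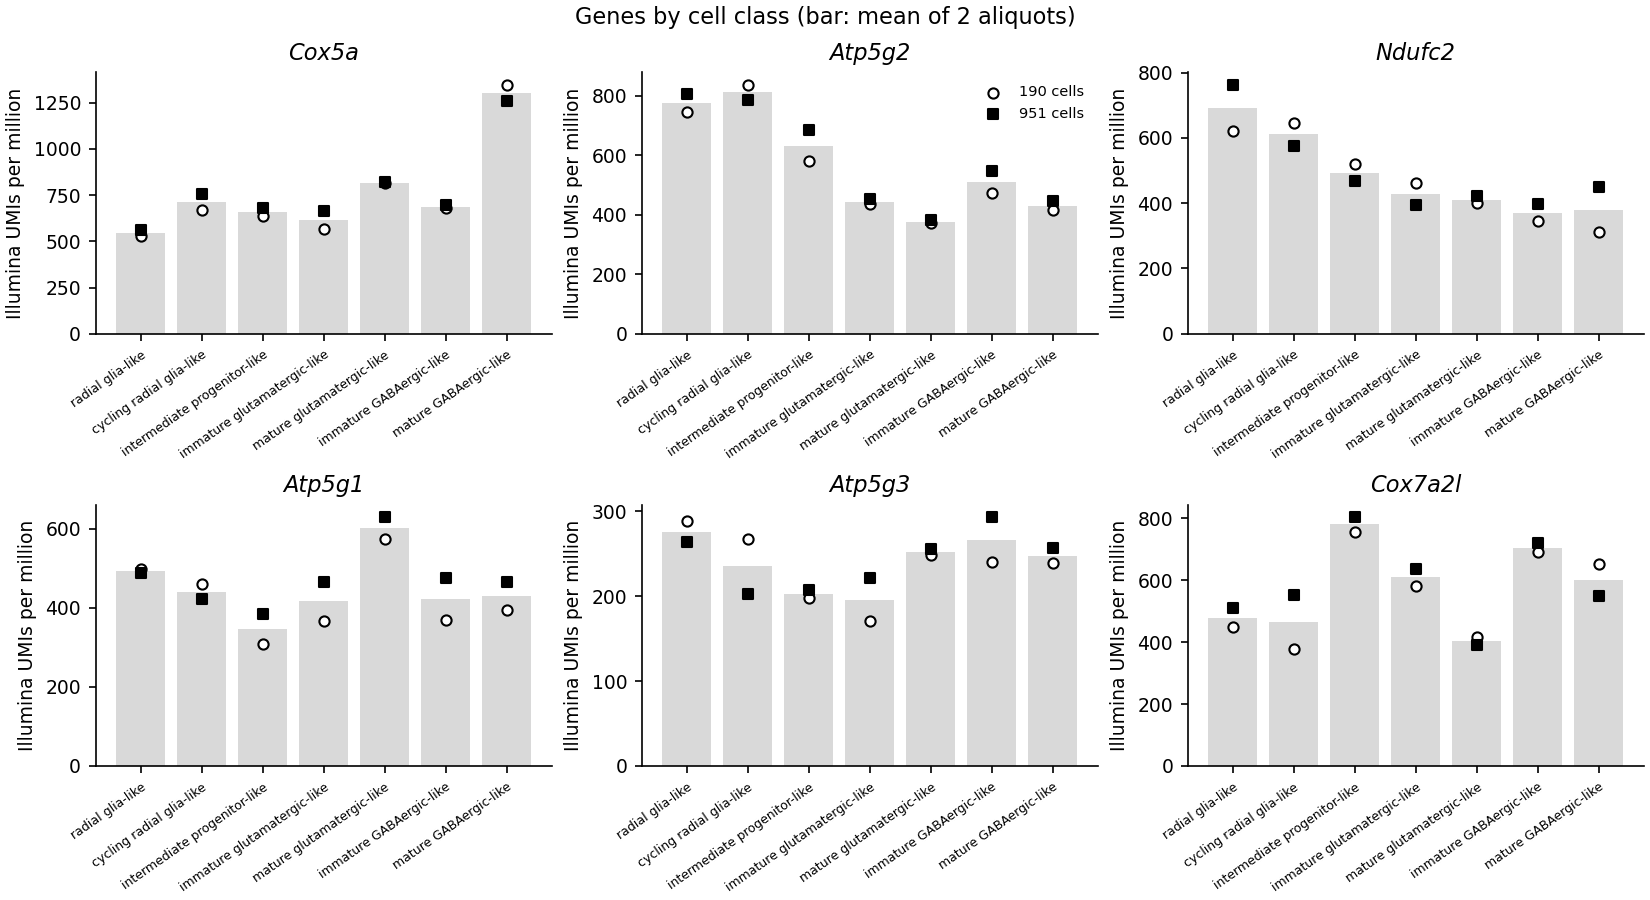
Illumina CPM (y axis, from 0) in 7 cell classes (x axis) for Cox5a, Atp5g2, Ndufc2, Atp5g1, Atp5g3 and Cox7a2l, with open circles for aliquot 190, filled squares for aliquot 951 and bars for their mean. Cox5a is highest in mature GABAergic-like neurons (1348 and 1257) and Atp5g2 is lowest in mature glutamatergic-like neurons (371 and 383).

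The filter for low counts kept 79 of the 88 genes, and 6 of them were called between mature glutamatergic-like neurons and radial glia-like cells. Of all 8686 genes tested there, 32.8% were called, and 16.8% were called lower. The 6 were Ndufaf5 and Cox5a, which rose, and Atp5g2, Ndufc2, Ndufa2 and Uqcr10, which fell. The median log2 fold change of the 79 was -0.07, that of all genes -0.04, and 3 of the 79 lay beyond 1 in either direction, against 34.6% of all genes. With the aliquot as a block, 22 of the 79 were called, where 43.1% of all genes were. Without aliquot 190 of the neurons 3 were called (26.1% of all genes), and without aliquot 951 of radial glia-like cells 3 (14.9%). The sign of the median changed in 6 of 16 other settings.

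Ndufa2, a complex I subunit in the matrix arm, fell by 0.58 on the log2 scale (standard error 0.18, adjusted p = 0.00972), and Uqcr10, a small subunit of complex III, by 0.56 (standard error 0.20, adjusted p = 0.0282). Ndufa2 kept this call in 12 of 16 other settings. The settings that lost it included leaving out aliquot 190 of the neurons or aliquot 951 of radial glia-like cells. Uqcr10 kept its call in 6 of 16 and lost it whichever of the 4 sums was left out (adjusted p = 0.0531 to 0.418). Ndufaf5, an assembly factor of complex I, rose by 1.45 (standard error 0.50, adjusted p = 0.0206) from few counts. In radial glia-like cells it had 2 and 13 UMIs, against 32 and 72 in mature glutamatergic-like neurons. The call was lost without aliquot 190 of the neurons (log2 fold change 1.01, adjusted p = 0.198), without either radial glia-like aliquot (0.053 and 0.182) and with the DESeq2 Wald test (0.179).

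In mature GABAergic-like neurons against radial glia-like cells, 18 of the 79 were called, where 30.4% of all genes were called. Cox5a was the only one of the 18 that rose, and 17 fell, or 21.5% of the 79, against 17.1% of all genes called lower. The 17 fell by 0.44 to 1.24 on the log2 scale and comprised 10 genes of complex I, 2 of complex III, 1 of complex IV and 4 of complex V. The median of the 79 was -0.25 and that of all genes -0.07. In both aliquots 50 of the 79 were lower, a count that was not made over all genes. Without aliquot 190 of the neurons 6 were called (24.7% of all genes), without aliquot 951 of radial glia-like cells 5 (16.2%), and with the DESeq2 Wald test 9 (16.3%).

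The 5 largest falls were in Ndufs8, Atp5g2, Ndufc2, Ndufb6 and Ndufa1. Ndufs8 (chr19:3908863-3912774, minus strand) carries iron-sulfur clusters of complex I and had 23 and 125 UMIs in radial glia-like cells but 1 and 48 in mature GABAergic-like neurons, or 128 and 146 against 10.4 and 76.1 CPM. Its log2 fold change of -1.24 (standard error 0.34, adjusted p = 0.00595) was -0.85 (adjusted p = 0.0396) without the aliquot in which 1 UMI was counted and -3.89 without the other one. The call was lost without aliquot 951 of radial glia-like cells (adjusted p = 0.161) and with cells thinned to 4000 UMIs (0.105). Ndufb6 and Ndufa1, both accessory membrane subunits of complex I, fell by 0.87 and 0.86 (standard errors 0.24 and 0.23, adjusted p = 0.0035 and 0.00349). Of 16 other settings, Ndufb6 kept its call in 14 and Ndufa1 in 12. Without aliquot 190 of the neurons their adjusted p was 0.109 and 0.0912, and without aliquot 951 of radial glia-like cells that of Ndufa1 was 0.247.

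From immature to mature glutamatergic-like neurons the differences were small and mostly of 1 sign. Of the 79 genes, 70 had a log2 fold change above 0, against 51.9% of all genes. Their median was 0.30, against 0.02 for all genes. In both aliquots 63 of the 79 were higher, a count that was not made over all genes. Only 2 passed the test, Uqcrq and Cox6c, or 2.53%, where 4.33% of all genes were called and 2.58% were called higher. Uqcrq, a small subunit of complex III, had TMM-scaled levels of 416 and 454 CPM in immature and 665 and 666 in mature cells (log2 fold change 0.61, standard error 0.19, adjusted p = 0.0485). Cox6c, a membrane subunit of cytochrome c oxidase, had 790 and 872 against 1143 and 1303 (0.55, standard error 0.17, adjusted p = 0.0491). Each kept its call in 4 of 16 other settings and lost it whichever of the 4 sums was left out (adjusted p = 0.226 to 0.382 and 0.156 to 0.483). With the aliquot as a block 20 of the 79 were called, where 10.9% of all genes were, and 19 of them were higher, where 6.59% of all genes were. Over the other settings the median of the genes lay 0.17 to 0.34 above that of all genes, so the direction of the median held in each.

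Between mature and immature GABAergic-like neurons the median was -0.08, with -0.02 for all genes, and 1 of the 79 was called, where 2.57% of all genes were called. This was Cox5a, which rose by 0.79 (standard error 0.18, adjusted p = 0.00359) from 678 and 695 to 1348 and 1257 CPM. The call was lost without either immature aliquot (adjusted p = 0.0671 and 0.0789), without aliquot 951 of the mature ones (0.113) and without the filter (0.0546). The median turned above 0 without aliquot 951 of the immature or aliquot 190 of the mature neurons. The block gave 3 calls, where 5.51% of all genes were called. The difference between both lineages' mature minus immature values was tested directly in the same edgeR fit, a test chosen after the data were seen. It called 0 of the 79 genes, where 2.13% of all genes were called, with 15 at an unadjusted p under 0.05, against 10.7% of all genes, and a median difference of 0.36 against 0.05 for all genes. With the block it called 12 of the 79, where 5.63% of all genes were called. In all 12 the difference was higher in the glutamatergic-like lineage, which held for 3.67% of all genes.

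Between both mature classes 1 of the 79 was called, where 8.65% of all genes were called. Atp5g1 was lower in mature GABAergic-like than in mature glutamatergic-like neurons (log2 fold change -0.62, standard error 0.20, adjusted p = 0.0426) and kept this call in 6 of 16 other settings. It was lost whichever of the 4 sums was left out (adjusted p = 0.0838 to 0.423). The block gave 16 calls, where 14.3% of all genes were called. Between cycling and resting radial glia-like cells 0 of the 79 were called by edgeR, where 11.3% of all genes were called, with 5 at an unadjusted p under 0.05 against 22.2% of all genes, and 0 calls by the DESeq2 Wald test (3.24% of all genes). The block gave 9, where 18.9% of all genes were called.

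**Figure D4:**
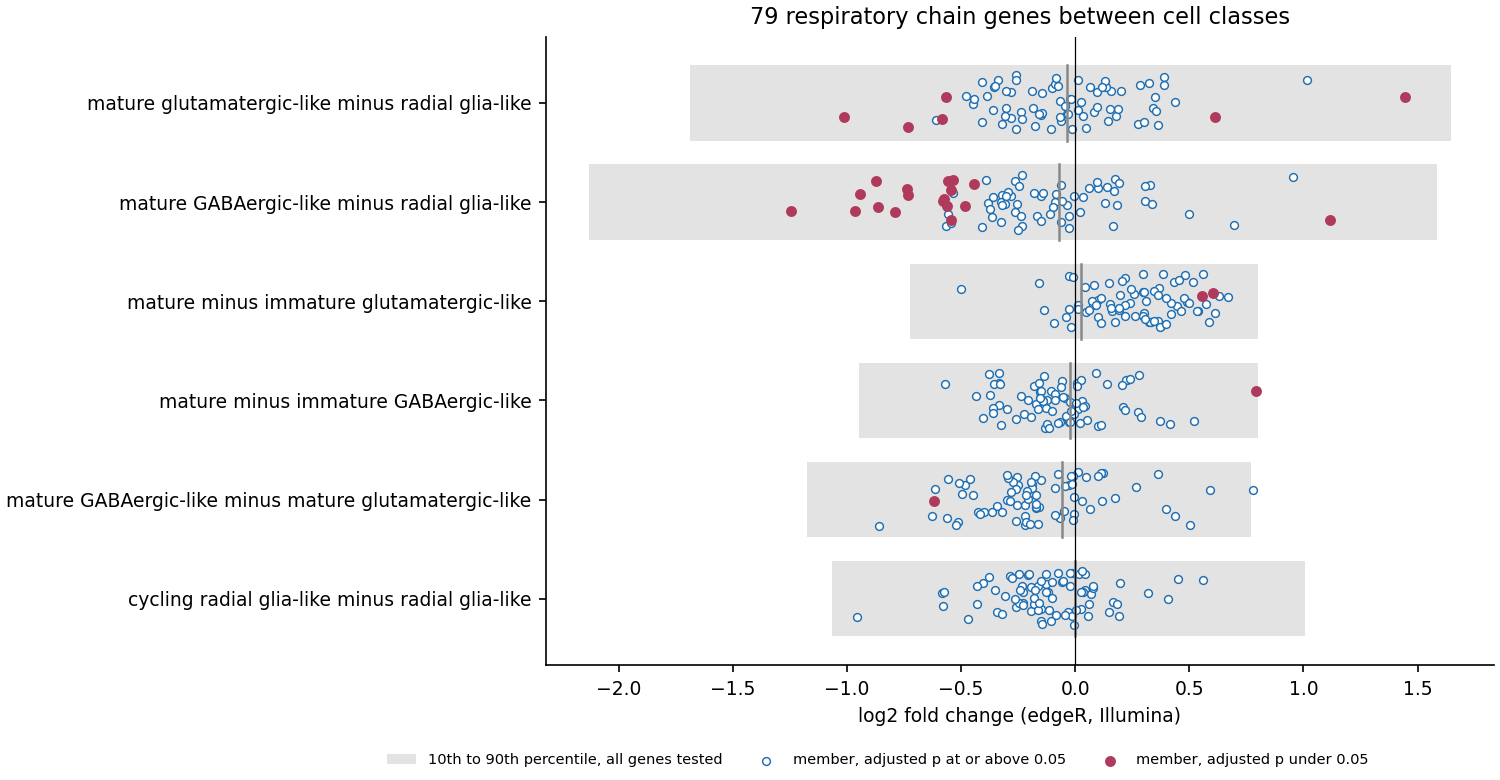
Log2 fold changes (x axis) of 79 respiratory chain genes in 6 comparisons of cell classes (y axis), with filled points for genes with an adjusted p under 0.05, open points for the others, grey bands for the 10th to 90th percentile of all 8686 genes and a grey tick for their median. Most points lie inside the bands. In mature minus immature glutamatergic-like neurons 70 of the 79 lie above 0, against 51.9% of all genes.

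Other genes of energy metabolism are given from lists of known genes, to be read against the shares of all genes. These were 16.0% called higher and 16.8% called lower in mature glutamatergic-like neurons, and 17.1% called lower in mature GABAergic-like neurons, each against radial glia-like cells. Against radial glia-like cells, 7 of 12 mitochondrially encoded genes tested were higher in mature glutamatergic-like neurons, with a median log2 fold change of 0.46, and in mature GABAergic-like neurons 1 of the 12 was lower, mt-Co1 at -0.54. Between both mature classes 8 of the 12 were lower in GABAergic-like neurons, where 5.54% of all genes were. Of 15 glycolytic genes tested, 7 were lower and 1 higher in mature glutamatergic-like neurons, and 11 were lower in mature GABAergic-like neurons, with medians of -0.44 and -1.26. Aldoc, which had the largest fall of them, was also one of the markers that named radial glia-like cells. Of 81 cytosolic ribosomal protein genes, 26 and 44 were lower in mature glutamatergic-like and mature GABAergic-like neurons, with medians of -0.32 and -0.50.

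Of 6 genes for complex II, cytochrome c and cytochrome c1 (Cyc1, a complex III subunit outside the symbol rule), 1 was higher in mature glutamatergic-like neurons. This was Cycs, the electron carrier cytochrome c, which rose by 0.66 (standard error 0.21, adjusted p = 0.0134). It also rose by 0.93 (standard error 0.22, adjusted p = 0.00431) from immature to mature glutamatergic-like neurons. The shares of all genes given above also apply to the lists that follow. Of 17 genes for pyruvate dehydrogenase and the citric acid cycle, 2 were lower in mature glutamatergic-like and 3 in mature GABAergic-like neurons, and of 24 other assembly factors tested 1 was lower in each. Of 6 regulators of mitochondrial biogenesis tested, 1 was lower in mature glutamatergic-like neurons. This was Nrf1, a transcription factor of respiratory chain genes, at -0.94 (standard error 0.32, adjusted p = 0.0186).

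Several complex IV subunits have a second gene that is used in other tissues, and in these cells the common form carried nearly all UMIs. Cox4i1 had 12171 Illumina UMIs and Cox4i2, the form known from lung, 9. Cox6a1 had 6692 and the muscle form Cox6a2 2. Cox6b1 had 8470 and the testis form Cox6b2 40. Cox7a2 had 8715 and the muscle form Cox7a1 54, and Cox7b had 5087 with 0 for the testis form Cox7b2, for which a count of 0 allows up to 3. Cox8a had 8429, and Cox8b and Cox8c had 1 each.

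Cox7a2l, a relative of Cox7a2 that takes part in joining complexes III and IV into supercomplexes, had 5324 UMIs. Its level was highest in intermediate progenitor-like cells (756 and 805 CPM) and lowest in mature glutamatergic-like neurons (417 and 390), a ratio of 1.94 between class means that was not tested. In the 6 comparisons above it was not called, with log2 fold changes from -0.50 to 0.40. Ndufa4, listed here with complex I by its symbol but known as a subunit of complex IV, had 8193 UMIs, and its relative Ndufa4l2 had 43. Of those 43, 34 came from 2 cells with at least 3 of 4 pericyte markers, both in the radial glia-like class. The same 2 cells held 3 of the 9 Cox4i2 UMIs and 3 of their own 10 Atp5c1 UMIs lacked exon 9.

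The platforms differed for most of these genes. The Nanopore tables hold only UMIs whose exon structure matched 1 annotated isoform, and barcodes and UMIs were found there with the Illumina data as a guide. Of 83 genes tested in both, 65 differed by edgeR, where 50.5% of all 9855 genes differed. Of these, 57 were higher on Nanopore (20.2% of all genes) and 8 were lower (30.3% of all genes). Higher and lower refer to levels scaled to library size. In UMIs, every respiratory chain gene with Illumina counts had fewer on Nanopore, at most 91.1% of its Illumina number (Ndufa8). The median log2 fold change of the 83 was 0.54 and that of all genes -0.04. With the aliquot as a block 74 were called, where 70.7% of all genes were.

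By complex, 28 of 38 complex I genes were higher on Nanopore and 4 lower, and 6 of 8 complex III genes were higher. Of 13 complex IV genes 9 were higher and 1 lower, and of 17 complex V genes 12 were higher and 2 lower. Of 7 complex I assembly factors 2 were higher and 1 lower. The 5 largest rises in scaled level were close together, from 0.74 to 0.77 on the log2 scale. These were Cox5a, Uqcrc2 (a core subunit of complex III), Ndufab1 (the mitochondrial acyl carrier protein), Ndufa8 and Ndufb11. Cox5a had 717 and 768 CPM on Illumina and 1132 and 1186 on Nanopore.

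A few genes were nearly absent from the Nanopore tables. Ndufa12 was counted in 599 and 2796 UMIs on Illumina but in 1 and 7 on Nanopore. Ndufb2 had 465 and 2782 against 1 and 14, and Ndufb8 had 516 and 2641 against 5 and 10. These accessory subunits of complex I were counted in 87.1, 87.1 and 87.9% of cells on Illumina and in 0.714, 1.34 and 1.34% on Nanopore. Atp5k, a membrane subunit of ATP synthase, had 998 and 5443 against 11 and 97, and Ndufa3 had 633 and 3257 against 34 and 289. Cox7a1, with far fewer counts, had 9 and 45 against 0 and 1. The log2 fold changes were -7.77 (Ndufa12), -6.73 (Ndufb2), -6.69 (Ndufb8), -4.97 (Atp5k) and -2.75 (Ndufa3), with standard errors of 0.17, 0.29, 0.26, 0.24 and 0.24 and adjusted p-values from 2.61e-05 to 0.000592. How many of their molecules were read but not assigned to an isoform was not analysed here.

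**Figure D5:**
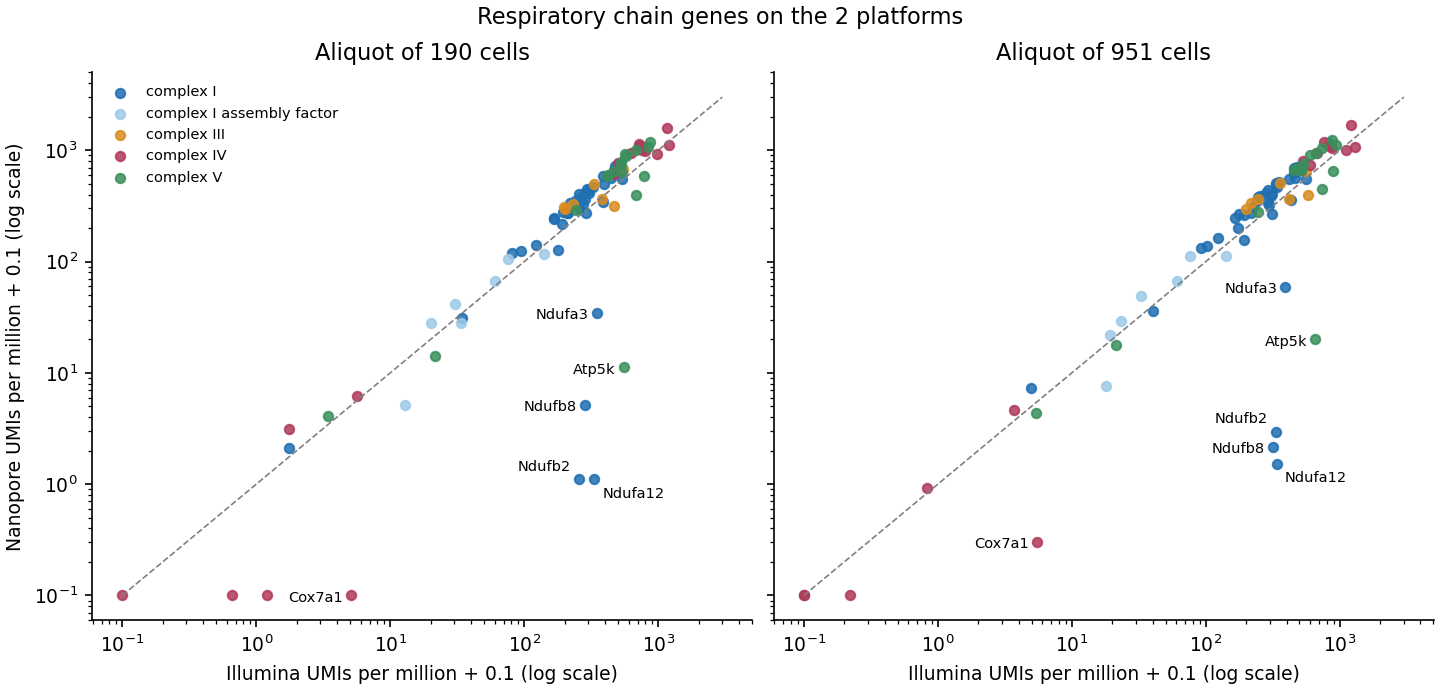
Nanopore against Illumina CPM plus 0.1 (both axes on a log scale) for the respiratory chain genes in aliquot 190 (left) and aliquot 951 (right), coloured by complex, with a dashed line of equal values. Most genes lie just above the line, and Ndufa3, Atp5k, Ndufb8, Ndufb2 and Ndufa12 lie far below it in both aliquots. Cox7a1 also had a lower level on Nanopore in both aliquots, from few counts (9 and 45 Illumina UMIs against 0 and 1).

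The promoters were searched for letters of factors known to act on respiratory chain genes, in RefSeq windows of 300 bases (250 before and 50 after a transcription start, GRCm38.p6), on both strands. Windows were found for 70 of the 88 genes, 75 in all. The core TGCGCA of the NRF1 motif, which reads the same on both strands, was in 17 of the 75 (22.7%) and in 7.76% of 32851 windows of all genes. The 32851 windows were not matched to the 75 by gene type, expression or base content. The ETS core CCGGAAG was in 20% against 8.86%, and the YY1 core AAGATGG in 13.3% against 6.34%. TGCGCA or CCGGAAG was in 38.7% against 15.3%. Atp5g2 held TGCGCA and Cox5a held none of these 3 strings. A match describes the letters only and no binding was measured.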

How the data were processed

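Single-cell 3' libraries were made with 10x Chromium v2 from brain cells of 1 E18 C57BL/6 mouse. The authors made the Illumina UMI count matrices with Cell Ranger 2.0 on mm10 (GRCm38). They made the Nanopore UMI count tables by mapping long reads with minimap2 to mm10, finding barcodes and UMIs with the help of the Illumina data, and counting, with Sicelore, only molecules whose exons all matched a Gencode vM18 isoform, which were deposited as counts per isoform and cell. These were summed per gene here.

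Cells with at least 1400 Illumina genes were kept. They were clustered with Seurat 5.3.0 without the respiratory chain genes, doublets were called (3 and 4 cells, kept except in 1 alternative), and clusters were named from marker lists. Counts were summed per class and aliquot and tested with edgeR 4.0.16 (R 4.3.3; TMM, filterByExpr, robust quasi-likelihood test, Benjamini-Hochberg adjustment over all genes, call at adjusted p under 0.05), isoform usage with its gene-level splicing test, and DESeq2 1.42.0 as an alternative. Only members were left out of clustering, so other genes that define the classes enter the shares of all genes called. Scripts used Python 3.11.15 with NumPy 2.4.6, pandas 2.3.3 and SciPy 1.17.1, and were tested on simulated data. Gene positions came from Gencode vM21 (GRCm38), matched by identifier for 87 of the 88 genes, and promoters from RefSeq. No protein sequences were used.

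Libraries of the same aliquot hold the same cells, so the aliquot number pairs them. Deviations from group means correlated at 0.693 between platforms (5105 genes) and at a median of 0.256 (0.191 to 0.435) over 21 pairs of classes (5921 genes). These are correlations across genes, and genes are no replicates. The fit with the aliquot as a block is given beside each count that it moved by over 1.5 times.

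Named genes were the 8 with the most Illumina UMIs, the members of paralog families, the 5 largest rises and falls among called genes with at least 100 UMIs and the same sign in both aliquots, every gene called for isoform usage, and those with at least 300 Nanopore UMIs whose main isoform held at most 80%. The genes, the marker lists and the other lists were chosen with earlier results of these data known.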

Additional observations from a re-analysis of the deposited data

How the results depend on the processing

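None of the called genes named for a large rise or fall reversed its fold change in that comparison under the alternatives run. They had been picked for the same sign in both aliquots, and the other genes were not checked for this. The median of the 79 genes minus that of all genes changed sign in 6 of 16 alternatives for mature glutamatergic-like neurons against radial glia-like cells (-0.11 to 0.09), in 2 for mature against immature GABAergic-like neurons (-0.17 to 0.07), in 1 between both mature classes (-0.20 to 0.01) and in 1 for cycling against resting radial glia-like cells (-0.18 to 0.01), and in none for the other comparisons of classes. Counts of called genes between classes that moved by over 1.5 times were as follows. The share of all genes called also moved with the setting and is given above for only some settings. These counts alone therefore do not tell a change in the 79 genes from a change in all genes. For mature glutamatergic-like neurons against radial glia-like cells (6) DESeq2 size factors gave 10, the replicate block 22, Nanopore counts 11, cells thinned to 4000 UMIs 3 and leaving out 1 aliquot of a class 3 to 5. For mature GABAergic-like neurons against radial glia-like cells (18) the DESeq2 Wald test gave 9, no filter 10, resolution 0.4 8, Nanopore 10, no doublets 9, thinning 5, no shared barcodes 10 and leaving out 1 aliquot 5 to 13. For mature against immature glutamatergic-like neurons (2) size factors gave 4, the block 20 and Nanopore 8, while the Wald test, no filter, resolutions 0.4 and 1.2, no doublets, thinning, no shared barcodes and adding the unnamed cluster each gave 0 and leaving out 1 aliquot 0 to 1. For mature against immature GABAergic-like neurons (1) no filter gave 0, the block 3 and leaving out 1 aliquot 0 to 1. Between both mature classes (1) size factors gave 3, the block 16, clustering with the respiratory chain genes 2, resolutions 0.4 and 1.2 2 and 5, Nanopore 6, no doublets 0, no shared barcodes 2, adding the unnamed cluster 3 and leaving out 1 aliquot 0 to 4. For cycling against resting radial glia-like cells (0) size factors, no filter, resolution 1.2, no doublets and no shared barcodes gave 1 each, Nanopore 2, the block 9 and leaving out 1 aliquot 0 to 1. For the difference between lineages (0) the block gave 12 and leaving out 1 aliquot 0 to 2. The cause of these changes was not tested. Thinning and leaving out an aliquot use fewer counts, and the part of this in the changes was not tested either.

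Counts of isoform and platform calls under alternatives are given here without the share of all genes called, and have the same limit. Without the filter, isoform usage was called for 1 gene in mature glutamatergic-like (3 before) and 2 in mature GABAergic-like neurons (1 before) against radial glia-like cells. Leaving out 1 aliquot gave 1 to 2, 0 to 1 and, for cycling cells, 0 to 1. The block, with the aliquots as pairs, changed no count of isoform calls. Between platforms leaving out 1 library gave 60 to 65 calls and the Wald test 58.

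The summed level of cycling radial glia-like cells on Illumina was 3.45% with only genes in both matrices as the total. Without mitochondrially encoded genes and Malat1 in the total it was 3.41%, and 3.06% in immature glutamatergic-like neurons. On Nanopore that total gave 3.86% for cycling radial glia-like cells and 4.05% for mature glutamatergic-like neurons. By single aliquot the main isoform held 82.7 to 84.2% (Atp5j), 70.9 to 76.8% (Atp5g3), 69.2 to 74.9% (Atp5h) and 77.1 to 79.4% (Cox6c). All deposited barcodes could not be used for class levels, since cells that were left out have no class.

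Leaving out shared barcodes, adding the unnamed cluster and the test between lineages were chosen after seeing the data. Small classes limit the counts: radial glia-like cells had 13 cells in aliquot 190.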
